A study of Mus musculus with 12 samples.

Results

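The genes examined here encode the Cide proteins (Cidea, Cideb and Cidec) and the perilipins (Plin1, Plin2, Plin3, Plin4 and Plin5), which sit on the surface of lipid droplets in fat cells. They were chosen by symbol, and all 8 have a row among the 23420 genes of the deposited count table. Libraries were made from total RNA with a TruSeq RNA kit, per the labels. All 12 are from male C57BL/6 animals at 8 weeks of age, held at ambient temperature without treatment, and no engineered allele is named. The groups are 2 brown pads, the supraclavicular (scBAT) and the interscapular (iBAT), and 2 white pads, the inguinal (iWAT) and the epididymal (eWAT), with 3 libraries each. The labels do not say whether libraries of a depot come from separate animals, so p-values measure only the spread between these samples.

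White fat cells store triglyceride in a single large droplet, and brown fat cells hold many small ones beside their mitochondria. Cide proteins gather where droplets touch and promote the transfer of lipid from the smaller to the larger droplet. Perilipins coat the droplet and control the access of lipases. Cidec is the Cide protein best known in white fat, Cidea in brown fat and Cideb in liver. Plin1 is the perilipin of mature fat cells, which holds back lipolysis until protein kinase A phosphorylates it. Plin2 and Plin3 are made in many tissues, Plin4 coats small and newly formed droplets of fat cells, and Plin5 is typical of tissues that burn fatty acids and brings droplets close to mitochondria.

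On the GRCm38 build, Plin4 (chr17:56100591-56109803) and Plin5 (chr17:56111601-56117596) are neighbours on the minus strand, with 1798 bases between them, and Plin3 (chr17:56277476-56292873) is on the same chromosome and strand. Plin1 lies at chr7:79720218-79732903, Plin2 at chr4:86648386-86670060, Cidec at chr6:113424634-113435760 and Cideb at chr14:55754050-55758458, all on the minus strand. Cidea is the only member on the plus strand. Overlapping genes bear on the counts, since no strand setting is given in the sources used here. Cideb shares 1136 exonic bases with Nop9 on the opposite strand, and Plin4 shares 17 with Hdgfl2.

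The 250 bases before the first annotated start are printed for 4 perilipins whose brown and white levels compare differently below: Plin5 and Plin2, which were higher in brown fat, Plin4, which was lower, and Plin1, whose difference did not pass the test. They are RefSeq sequences of GRCm38.p6, read 5′ to 3′ on the minus strand, and end at the base before the start. The spans are chr17:56117549-56117798 for Plin5, chr4:86670060-86670309 for Plin2, chr17:56109783-56110032 for Plin4 and chr7:79732777-79733026 for Plin1. Capitals mark letters that match a searched motif.
Plin5: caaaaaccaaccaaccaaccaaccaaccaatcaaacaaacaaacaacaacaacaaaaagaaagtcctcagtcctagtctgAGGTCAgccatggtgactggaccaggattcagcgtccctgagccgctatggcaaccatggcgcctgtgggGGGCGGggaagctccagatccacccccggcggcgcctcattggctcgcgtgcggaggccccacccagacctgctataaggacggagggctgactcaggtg
Plin2: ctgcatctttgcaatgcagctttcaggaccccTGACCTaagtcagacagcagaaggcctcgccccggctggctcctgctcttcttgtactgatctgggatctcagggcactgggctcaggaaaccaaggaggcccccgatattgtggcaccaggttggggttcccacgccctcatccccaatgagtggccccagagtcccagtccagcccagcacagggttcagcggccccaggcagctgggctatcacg
Plin4: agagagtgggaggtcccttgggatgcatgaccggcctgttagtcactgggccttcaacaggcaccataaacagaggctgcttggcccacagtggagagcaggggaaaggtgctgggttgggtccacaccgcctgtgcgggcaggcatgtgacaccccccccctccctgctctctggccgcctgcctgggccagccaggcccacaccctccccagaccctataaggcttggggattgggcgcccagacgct
Plin1: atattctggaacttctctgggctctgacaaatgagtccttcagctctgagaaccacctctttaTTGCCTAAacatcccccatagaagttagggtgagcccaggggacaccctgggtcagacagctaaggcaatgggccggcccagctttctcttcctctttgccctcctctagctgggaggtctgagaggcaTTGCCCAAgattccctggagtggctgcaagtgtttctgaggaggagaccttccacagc
In Plin5 the capitals are the nuclear receptor hexamer AGGTCA, at -170 to -165 from the start, and the GC box GGGCGG, at -100 to -95. RefSeq gives Plin5 another start, whose window at chr17:56117299-56117548 holds GC boxes at -239 to -234 and -53 to -48 and no hexamer. In Plin2 they are the same hexamer on the other strand, TGACCT, at -218 to -213. In Plin1 they are matches to the C/EBP element TTGCNNAA, at -187 to -180 and -58 to -51. The Plin4 window holds none of the 8 motifs searched on both strands. Beside the hexamer, the GC box and the C/EBP element, these were the TATA box TATAAA, the E-box CACGTG, the cyclic AMP site TGACG, the estrogen-related receptor element TNAAGGTCA, and the peroxisome proliferator response element, a tandem pair of hexamers with 1 base between. The last 2 contain the hexamer. Of all 32851 windows of this length, 14.0% hold AGGTCA, 32.7% GGGCGG, 9.56% TTGCNNAA, 12.4% TATAAA, 6.02% CACGTG, 17.8% TGACG, 1.14% the estrogen-related element and 0.0335% the peroxisome proliferator element. A match is a run of letters and was not tested as a binding site.

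Levels are CPM, counts put on a per-library scale by TMM normalization, and rest on totals of 17159401 to 29262554 counts per library. Sums of 10 fat cell markers were 15757 to 19012 CPM in scBAT, 16342 to 18197 CPM in iBAT, 8830 to 22067 CPM in iWAT and 19254 to 22001 CPM in eWAT. Sums of 8 brown fat cell markers were 3260 to 4365 CPM in the brown libraries and 103 to 295 CPM in the white ones, with none of these genes at 0 in any depot. The iWAT libraries 1 and 3 stood apart. Their B cell marker sums were 1423 and 1950 CPM and their T cell marker sums 792 and 1222 CPM, against 81.6 and 54.2 CPM in iWAT 2 and at most 39.5 and 19.1 CPM in the other depots. Their fat cell marker sums, 13079 and 8830 CPM, were the lowest of the 12. Calls on members that changed without these libraries are therefore given beside the results. That alternative was chosen with the data known and assumes that the remaining iWAT library varies like the other depots. Skeletal muscle markers reached 5549 CPM in scBAT 1 and 1642 to 1905 CPM in the other scBAT libraries, and 383 to 1795 CPM in iBAT, against 49.7 to 221 CPM in white fat. Salivary gland markers reached 2056 to 9835 CPM in scBAT, and 2177 CPM in eWAT 2, against at most 942 CPM elsewhere. Macrophage marker sums were 178 to 330.1 CPM in brown fat against 1082 to 1685 CPM in white fat, and fibroblast and progenitor sums were 859 to 1539 CPM in brown fat against 1800.0 to 5843 CPM in white fat. The part of these cell types in the differences between brown and white fat was not tested.

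Cidea and Plin5 had the largest brown excess, Plin2 and Plin3 were also higher in brown fat, and Plin4 was lower. Cideb was called higher too, but its counts were low and it passed the filter on low counts through the brown depots. Its calls here and below are therefore no independent support. In brown minus white, the mean of both brown depots minus that of both white depots on a log2 scale, 6 of 8 members passed edgeR's quasi-likelihood test at an adjusted p of 0.05, 5 higher and 1 lower. Of all 14898 tested genes, 69.4% passed, 31.3% higher and 38.1% lower, so passing the test here is common. The median difference of all tested genes was -0.11. In bulk tissue, fewer cells of a type and less RNA per cell cannot be told apart.

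Cidea, the brown fat Cide protein, had 1712, 1618 and 1903 CPM in scBAT libraries 1 to 3 and 1878, 1911 and 1856 CPM in iBAT, against 61.0, 229 and 84.2 CPM in iWAT and 28.3, 105 and 32.2 CPM in eWAT. Every brown library was above every white one, and iWAT 2 and eWAT 2 were the highest of their depots. Those libraries also had the highest brown fat cell marker sums of white fat, 295 and 231 CPM, against 103 to 115 CPM in the other white libraries, and the part of these cells in the Cidea level was not tested. The brown minus white difference was 4.45 (SE 0.44, adjusted p = 7.42e-06) and was 4.02 (adjusted p = 0.000615) without iWAT 1 and 3.

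Cidec, the Cide protein best known in white fat, had 998, 1399 and 1453 CPM in scBAT, 971, 1053 and 1366 CPM in iBAT, 1113, 1943 and 675 CPM in iWAT and 2196, 2135 and 2018 CPM in eWAT. All eWAT libraries were above all brown ones, and the iWAT libraries lay inside, above and below the brown range. Brown minus white was -0.43 (95% interval -0.94 to 0.08, adjusted p = 0.121). Without iWAT 3 it was -0.58 (adjusted p = 0.0116), and without iWAT 1 and 3 it was -0.74 (adjusted p = 0.000567), both past the threshold.

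Cideb was close to the detection limit. It had 31, 20 and 28 counts in scBAT and 32, 18 and 14 in iBAT, against 1, 4 and 2 in iWAT and 1, 2 and 28 in eWAT. These are 0.904 to 1.96 CPM in brown fat and 0.0352 to 0.878 CPM in white fat, with eWAT 3 just under the lowest brown library. Its fitted difference was 3.03 (SE 0.64, adjusted p = 0.00163), and the gene passed the filter on low counts through the brown depots, so this call is no independent support. In eWAT 3 the sum of 8 hepatocyte markers was also high, 204 CPM against 29.1 to 29.8 CPM in the other eWAT libraries. Of that sum 178 CPM were Apoa1, which had at most 0.319 CPM in the other white libraries, while Alb had 16.3 CPM in eWAT 3 and 16.1 to 18.6 CPM in eWAT 1 and 2. Serpina1a had 8.69 CPM in eWAT 3 against 9.26 and 10.1 CPM in eWAT 1 and 2, and Apoa2 0.219 CPM against 0.390 and 0.476 CPM. High Apoa1 was thus not shared by these other markers, and its relation to the Cideb counts was not tested. Nop9, which overlaps Cideb, had depot means of 21.4 to 29.4 CPM and a brown minus white difference of -0.14 (adjusted p = 0.266).

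Plin1, the perilipin of mature fat cells, had 1060.3, 1089 and 1217 CPM in scBAT, 1036, 936 and 1038 CPM in iBAT, 718, 1352 and 422 CPM in iWAT and 1399.8, 1462 and 1241 CPM in eWAT. The brown libraries lay within the span of the white ones, above iWAT 1 and 3 and below the other 4. Brown minus white was -0.01 (95% interval -0.52 to 0.50, adjusted p = 0.982), an interval that allows a difference of either sign. Its sign turned in some alternatives, and without iWAT 1 and 3 it was -0.35 (adjusted p = 0.00158).

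Plin2, the widely expressed droplet coat, had 499, 792 and 787 CPM in scBAT and 481, 632 and 715 CPM in iBAT, against 221, 439 and 171 CPM in iWAT and 294, 307 and 275 CPM in eWAT. All brown libraries were above all white ones, though iWAT 2 came near the lowest brown library. The difference was 1.19 (SE 0.23, adjusted p = 0.00086). Plin3, which moves between cytosol and droplet, had 231, 221 and 230.5 CPM in scBAT and 273, 227 and 238 CPM in iBAT, against 61.4, 83.1 and 50.9 CPM in iWAT and 108, 88.7 and 100.2 CPM in eWAT. The groups were well apart, and the difference of 1.56 (SE 0.12, adjusted p = 1.02e-06) had the smallest error of the 8 members.

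Plin4, the coat of small and new droplets, had 891, 1182 and 1134 CPM in scBAT and 942, 701 and 1143 CPM in iBAT, against 1618, 2996 and 855 CPM in iWAT and 2989, 3173 and 3014 CPM in eWAT. Only iWAT 3, at 855 CPM, reached into the brown range. The difference was -1.24 (SE 0.27, adjusted p = 0.0017), and -1.59 without iWAT 1 and 3. Its neighbour Plin5, the perilipin of oxidative tissue, had 248, 307 and 389 CPM in scBAT and 306, 291 and 375 CPM in iBAT, against 10.5, 39.0 and 11.2 CPM in iWAT and 16.5, 25.7 and 17.7 CPM in eWAT. The lowest brown library, scBAT 1, was far above the highest white one, iWAT 2, and the fitted difference was 3.99 (SE 0.35, adjusted p = 2.82e-06), or 3.53 without iWAT 1 and 3. The scBAT 1 library also had the highest sum of muscle markers, and its part in the Plin5 level was not tested. Plin4 and Plin5, whose promoter windows are printed above, differed between brown and white fat in opposite directions although they adjoin on 1 strand.

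**Figure D1:**
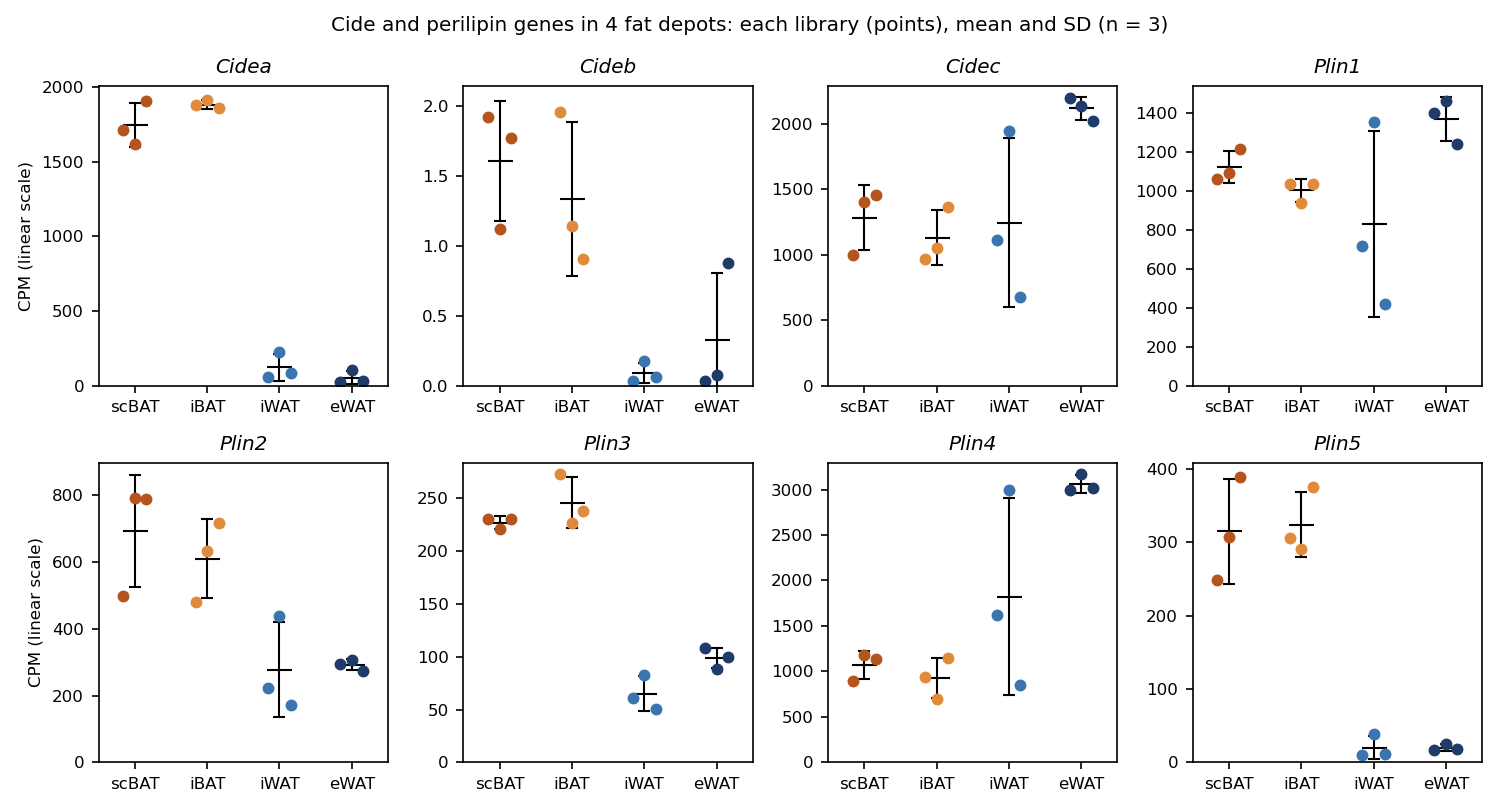
CPM (linear y axis, a scale of its own in each panel) of the 8 genes in scBAT, iBAT, iWAT and eWAT, with a point per library and lines for the mean and SD of 3 libraries. Cidea and Plin5 are near the floor in white fat, Plin4 and Cidec are highest in eWAT, and the iWAT points spread most for Plin1, Plin4 and Cidec.

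No brown library overlapped a white one for Cidea, Cideb, Plin2, Plin3 and Plin5, while Cidec, Plin1 and Plin4 overlapped. For Cideb the lowest brown library had 0.904 CPM and the highest white one 0.878 CPM. Neither that gap nor the left-out runs below are independent support for Cideb. Of all tested genes, 45.1% did not overlap, 23.3% above and 21.9% below. The brown minus white difference of the 6 called members kept its direction and its side of the threshold with any single library left out, with ranges of 4.28 to 4.89 for Cidea, 2.78 to 4.27 for Cideb, 1.07 to 1.45 for Plin2, 1.48 to 1.68 for Plin3, -1.42 to -0.95 for Plin4 and 3.83 to 4.45 for Plin5. Without iWAT 1 and 3, which leaves iWAT 2 alone in its depot, these 6 differences kept their sign. They were 4.02 for Cidea, 2.56 for Cideb, 0.87 for Plin2, 1.39 for Plin3, -1.59 for Plin4 and 3.53 for Plin5. Those of Cidec and Plin1 were then -0.74 and -0.35.

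Between the brown depots no member passed the test. Depot means of Cidea were 1744 ± 146 CPM in scBAT and 1881 ± 27.6 CPM in iBAT, and those of Plin5 were 315 ± 71.0 CPM in scBAT and 324 ± 44.5 CPM in iBAT (SD, n = 3 each). In scBAT minus iBAT, 0 of 8 members passed edgeR's test, and 0 reached an unadjusted p under 0.05, while 0.329% of all tested genes passed. DESeq2 and limma-voom also called 0 members. The fitted intervals still allow differences: -1.30 to 1.09 for Cidea, -0.54 to 0.91 for Cidec, -0.56 to 0.88 for Plin1, -0.52 to 0.90 for Plin2, -0.47 to 0.24 for Plin3, -0.62 to 1.03 for Plin4, -1.0 to 0.91 for Plin5 and -1.46 to 1.98 for Cideb. Their width also reflects the white libraries, since the spread of a gene was fitted over all 12 libraries. For Cidea the SD of log2 CPM was 0.119 in scBAT and 0.0212 in iBAT, against 0.996 in iWAT and 1.04 in eWAT. The closest bounds were those of Plin3, whose difference was -0.11 (SE 0.16).

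Between the white depots, iWAT minus eWAT, only Plin3 passed edgeR's test, as 1 of 8 members, against 28.7% of all tested genes, 17.7% higher and 11.0% lower in iWAT. Plin3 averaged 65.1 ± 16.5 CPM in iWAT and 99.0 ± 9.67 CPM in eWAT (SD, n = 3 each), a difference of -0.60 (SE 0.16, adjusted p = 0.0242). This call ended without iWAT 1, iWAT 3, eWAT 1 or eWAT 3, with adjusted p of 0.0644 to 0.0903, and in a fit of these 6 libraries alone (adjusted p = 0.142). Plin4 averaged 1823 ± 1085 CPM in iWAT and 3059 ± 99.9 CPM in eWAT, with a difference of -0.75 (adjusted p = 0.139). The differences of Cidec, -0.77 (adjusted p = 0.0957), and Plin1, -0.72 (adjusted p = 0.111), also missed the threshold, as did that of Cidea, 1.18 (adjusted p = 0.117).

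The calls of this comparison depended on the iWAT libraries used. Without iWAT 2 there were 6 members that passed as lower in iWAT. They were Plin3, Plin1 with -1.26, Cidec with -1.24, Plin4 with -1.30, Plin5 with -0.87 and Plin2 with -0.57. Of all genes 10323 passed, 5326 higher and 4997 lower in iWAT. The iWAT libraries left were then 1 and 3, which had the high B and T cell and low fat cell marker sums given above. The part of these cells was not tested. Without iWAT 1 and 3, 0 members passed, with Plin3 at -0.23 (adjusted p = 0.396), and the differences of Plin1 and Plin4 were 0.00410 and -0.0091. Cidea passed as higher in iWAT only without eWAT 2, at 2.03 (adjusted p = 0.0387). The SD of log2 CPM within iWAT was 0.842 for Plin1, 0.905 for Plin4 and 1.06 for Plin5, against a median of 0.401 over all tested genes, and in eWAT it was 0.122, 0.0467 and 0.342, against a median of 0.116.

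**Figure D2:**
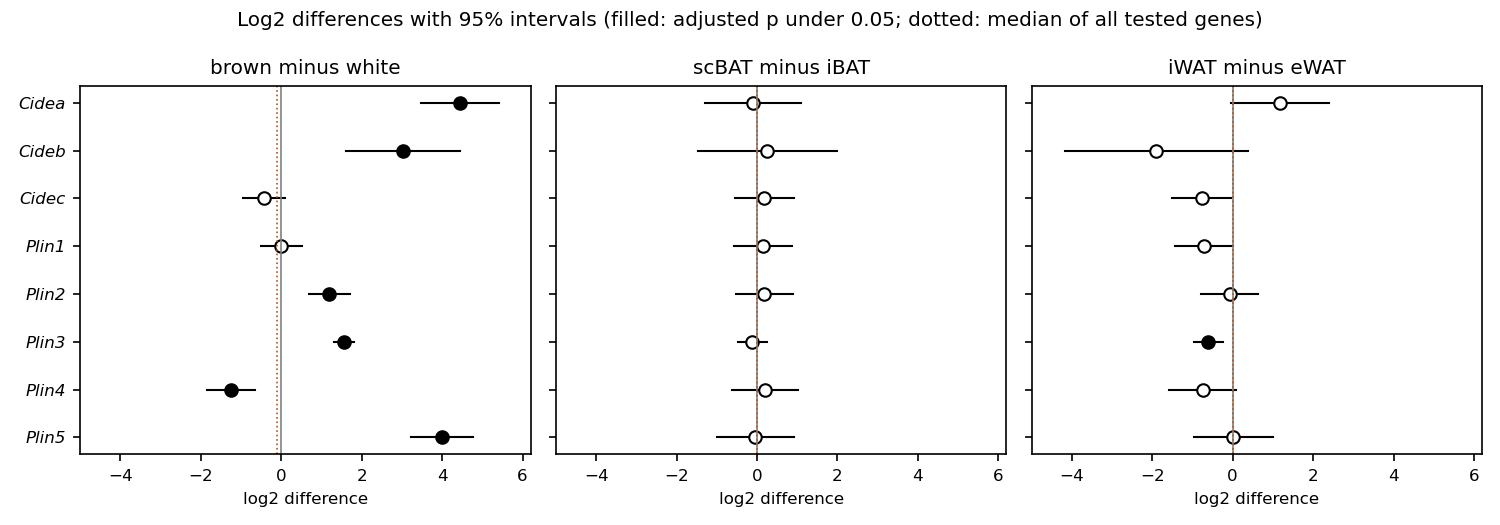
Log2 differences of the 8 genes (x axis) in brown minus white, scBAT minus iBAT and iWAT minus eWAT, with 95% intervals. Filled points passed edgeR's test at an adjusted p of 0.05, and the dotted line is the median of all tested genes, -0.11 in brown minus white.

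Each pair of a brown and a white depot was also compared, and these comparisons share depots with each other and with those above. In scBAT minus iWAT, 5 of 8 members passed, all higher in scBAT, against 61.6% of all tested genes, 28.1% higher and 33.5% lower. In iBAT minus iWAT 6 passed, 5 higher and 1 lower, against 63.0% of all genes, 27.9% higher and 35.2% lower. In scBAT minus eWAT 6 passed, 5 higher and 1 lower, against 51.9%, with 26.0% higher and 25.8% lower. In iBAT minus eWAT 6 passed, 4 higher and 2 lower, against 53.7%, with 26.2% higher and 27.5% lower. Cidea was higher by 3.81 in scBAT and 3.91 in iBAT than in iWAT, and by 4.99 in scBAT and 5.09 in iBAT than in eWAT. Plin5 was higher by 3.96 in scBAT and 4.0 in iBAT than in iWAT, and by 3.98 in scBAT and 4.02 in iBAT than in eWAT. The differences of both genes from iWAT moved with the iWAT libraries used. Without iWAT 2 those of Plin5 were 4.86 in scBAT and 4.91 in iBAT, and those of Cidea 4.59 in scBAT and 4.71 in iBAT. Without iWAT 1 and 3 those of Plin5 were 3.01 in scBAT and 3.06 in iBAT, and those of Cidea 2.93 in scBAT and 3.04 in iBAT.

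Plin3 was higher by 1.8 in scBAT and 1.92 in iBAT than in iWAT, and by 1.20 in scBAT and 1.31 in iBAT than in eWAT. For Plin2 the differences from iWAT were 1.32 in scBAT and 1.14 in iBAT, and those from eWAT 1.25 in scBAT and 1.06 in iBAT. The Plin2 call of iBAT minus eWAT (adjusted p = 0.0177) ended without iBAT 2, iBAT 3, eWAT 1 or eWAT 3, with adjusted p of up to 0.0658. The Plin2 call of iBAT minus iWAT (adjusted p = 0.0108) ended in a fit of that pair alone (adjusted p = 0.0542). Without iWAT 1 and 3, Plin2 missed the threshold against iWAT, with 0.66 in scBAT (adjusted p = 0.0839) and 0.48 in iBAT (adjusted p = 0.188).

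Plin4 was lower in both brown depots than in eWAT, with differences of -1.52 in scBAT (adjusted p = 0.00674) and -1.72 in iBAT (adjusted p = 0.00319). Against iWAT it was -0.77 in scBAT (adjusted p = 0.0956) and -0.97 in iBAT (adjusted p = 0.042). The iBAT call held without iWAT 3 and ended with any of the other 11 libraries left out. It also ended in a fit of that pair alone (adjusted p = 0.142), with limma-voom (adjusted p = 0.0613) and with no filter on low counts (adjusted p = 0.0504). The scBAT difference was -1.49 (adjusted p = 0.000367) without iWAT 1 and 3. Cidec was lower in iBAT than in eWAT, with a difference of -0.91 (adjusted p = 0.0389), a call that held without scBAT 1, iWAT 2 or iWAT 3 and ended without any of the other 9 libraries. In scBAT minus eWAT it was -0.72 (adjusted p = 0.0893), and it passed in a fit of that pair alone (-0.71, adjusted p = 0.00131), without iWAT 2 (adjusted p = 0.00963), without iWAT 3 (adjusted p = 0.0212) and without iWAT 1 and 3 (adjusted p = 0.0027). Against iWAT, Cidec missed the threshold with all libraries and passed as lower without iWAT 1 and 3, with -0.60 in scBAT (adjusted p = 0.0401) and -0.78 in iBAT (adjusted p = 0.0115). Plin1 minus its eWAT level was -0.29 in scBAT (adjusted p = 0.489) and -0.45 in iBAT (adjusted p = 0.271), and it passed in fits of each pair alone, with -0.27 in scBAT (adjusted p = 0.0263) and -0.43 in iBAT (adjusted p = 0.00183). Without iWAT 1 and 3, Plin1 also passed as lower against eWAT, with -0.27 in scBAT and -0.42 in iBAT, and in iBAT minus iWAT, with -0.43. Without iWAT 2 it passed as lower in iBAT minus eWAT (adjusted p = 0.0405). That fit also called Plin1 higher than in iWAT, by 0.98 in scBAT (adjusted p = 0.000655) and 0.83 in iBAT (adjusted p = 0.00191). Cideb passed in scBAT minus eWAT at 2.21 (adjusted p = 0.0443), a call that held without iWAT 2, iWAT 3 or eWAT 3 and ended without any of the other 9. This call also ended in a fit of that pair alone (adjusted p = 0.073), with upper quartile scaling (adjusted p = 0.0544) and with no filter (adjusted p = 0.0611). The other Cideb differences were 4.11 in scBAT minus iWAT, 3.85 in iBAT minus iWAT and 1.95 in iBAT minus eWAT (adjusted p = 0.0697). The last was 4.43 without eWAT 3. Cideb missed the threshold against iWAT without iWAT 1 and 3, with 3.14 in scBAT (adjusted p = 0.108) and 2.89 in iBAT (adjusted p = 0.133).

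A test of any difference among the 4 depots gave adjusted p of 8.61e-06 for Plin3, 2.66e-05 for Plin5, 6.47e-05 for Cidea, 0.00555 for Plin4, 0.00568 for Plin2 and 0.00966 for Cideb. Cidec had 0.0801 and Plin1 0.249. Thus 6 of 8 members passed, against 73.0% of all genes. The order of depot means was iBAT, scBAT, iWAT and eWAT for Cidea, and iBAT, scBAT, iWAT and eWAT for Plin5 too. For Plin3 it was iBAT, scBAT, eWAT and iWAT, and for Plin2 scBAT, iBAT, eWAT and iWAT. For Plin4 the order was eWAT, iWAT, scBAT and iBAT. For Cidec it was eWAT, scBAT, iWAT and iBAT, and for Plin1 eWAT, scBAT, iBAT and iWAT. For Cideb it was scBAT, iBAT, eWAT and iWAT. Neighbours in these orders that were both brown did not pass the test, nor did neighbours that were both white apart from Plin3, while the brown and white neighbours passed for Cidea, Plin2, Plin3 and Plin5 and did not for the other 4 genes.

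To compare levels between genes, CPM was divided by the length of the merged exons in kilobases. Cidea made up 69.4 ± 4.20% of the summed Cide level per kilobase in scBAT and 73.6 ± 3.72% in iBAT, against 14.0 ± 4.89% in iWAT and 4.08 ± 3.01% in eWAT (SD, n = 3 each). Cidec made up nearly all of the rest, 30.5% in scBAT, 26.4% in iBAT, 86.0% in iWAT and 95.9% in eWAT. Cideb made up at most 0.0624% in any library, by a length that includes the 1136 bases shared with Nop9. The summed Cide level was 2257 ± 213 CPM per kilobase in scBAT and 2297 ± 97.1 in iBAT, against 782 ± 421 in iWAT and 1190.1 ± 65.7 in eWAT. The Cide family thus differed in its total as well as in its makeup, and every brown library had a larger total than every white one.

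Among the perilipins, Plin1 held a like share in every depot, 29.2 ± 2.86% in scBAT, 28.2 ± 2.20% in iBAT, 29.7 ± 0.103% in iWAT and 31.2 ± 1.37% in eWAT. Plin4 held 22.2 ± 1.23% in scBAT and 20.7 ± 2.99% in iBAT, against 51.8 ± 3.05% in iWAT and 56.2 ± 1.45% in eWAT. Plin5 held 17.9 ± 1.84% in scBAT and 20.1 ± 0.514% in iBAT, against 1.55 ± 0.504% in iWAT and 1.01 ± 0.212% in eWAT. Plin2 and Plin3 also had larger shares in brown fat. Plin2 held 23.4% in scBAT and 22.5% in iBAT, against 13.6% in iWAT and 8.82% in eWAT, and Plin3 held 7.30% in scBAT and 8.51% in iBAT, against 3.26% in iWAT and 2.78% in eWAT. The summed perilipin level was 834 ± 117 CPM per kilobase in scBAT and 770.1 ± 86.0 in iBAT, against 600 ± 342 in iWAT and 942 ± 42.6 in eWAT, so that here the makeup differed while the totals overlapped.

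**Figure D3:**
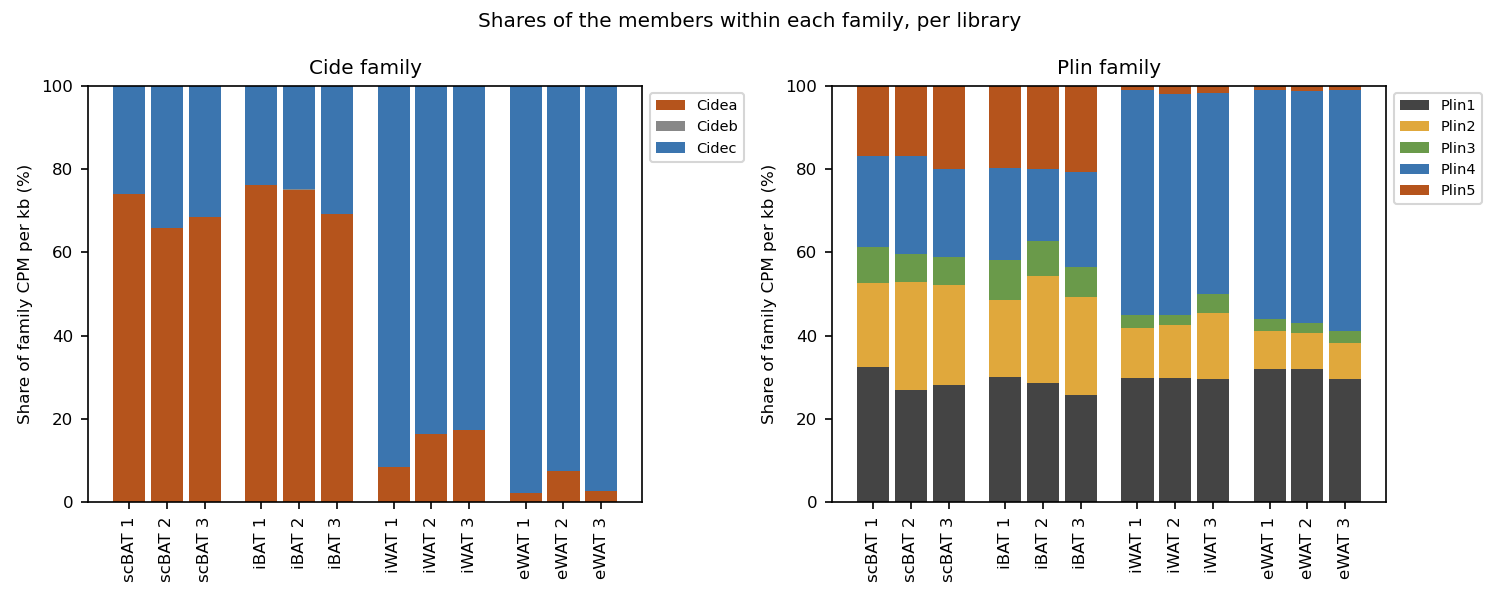
Share of each gene (y axis, percent) in the summed CPM per kilobase of its family, for each of the 12 libraries. Cidea fills most of the Cide bar in brown fat and Cidec in white fat, while Plin4 fills more of the perilipin bar in white fat and Plin5, Plin2 and Plin3 more of it in brown fat.

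Shares depend on the length used. With the length of the principal transcript, the share of Plin4 was 15.9% in scBAT and 15.0% in iBAT, against 39.6% in iWAT and 44.0% in eWAT, and that of Plin1 34.3% in scBAT and 33.4% in iBAT, against 37.3% in iWAT and 40.1% in eWAT. Cidea then had 67.8% in scBAT and 72.1% in iBAT, against 13.1% in iWAT and 3.79% in eWAT, so the order of the depots stayed. By depot means the largest perilipin share was that of Plin1 in scBAT and iBAT and that of Plin4 in iWAT and eWAT with either length. In single libraries and with the principal transcript, Plin2 was above Plin1 in scBAT 2 (34.2% against 31.5%), iBAT 2 (33.6% against 33.3%) and iBAT 3 (31.6% against 30.7%), and Plin1 was above Plin4 in iWAT 3 (36.7% against 36.4%).

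Ratios of 2 genes in the same library do not depend on library scaling. Per kilobase, Cidea over Cidec was 1.92 to 2.86 in scBAT and 2.26 to 3.22 in iBAT, against 0.0912 to 0.208 in iWAT and 0.0214 to 0.0816 in eWAT. Plin5 over Plin1 was 0.521 to 0.713 in scBAT and 0.657 to 0.804 in iBAT, against 0.0327 to 0.0643 in iWAT and 0.0263 to 0.0392 in eWAT. Plin4 over Plin1 was 0.676 to 0.873 in scBAT and 0.603 to 0.886 in iBAT, against 1.63 to 1.81 in iWAT and 1.72 to 1.95 in eWAT. In these ratios no brown library overlapped a white one.

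Cidec over Plin1 was 2.36 to 3.22 in scBAT and 2.35 to 3.30 in iBAT, against 3.60 to 4.01 in iWAT and 3.66 to 4.07 in eWAT, again without overlap, although neither gene passed the brown minus white test. Plin4 over Plin1 and Cidec over Plin1 were close among the iWAT libraries, where the level of Plin1 itself differed 3.21-fold between the highest and the lowest library and its share of the perilipin sum was 29.6 to 29.8%. Plin5 over Plin1 varied more in iWAT, with 0.0327 in iWAT 1 and 0.0592 to 0.0643 in the others. These ratios are descriptions and were not tested.

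**Figure D4:**
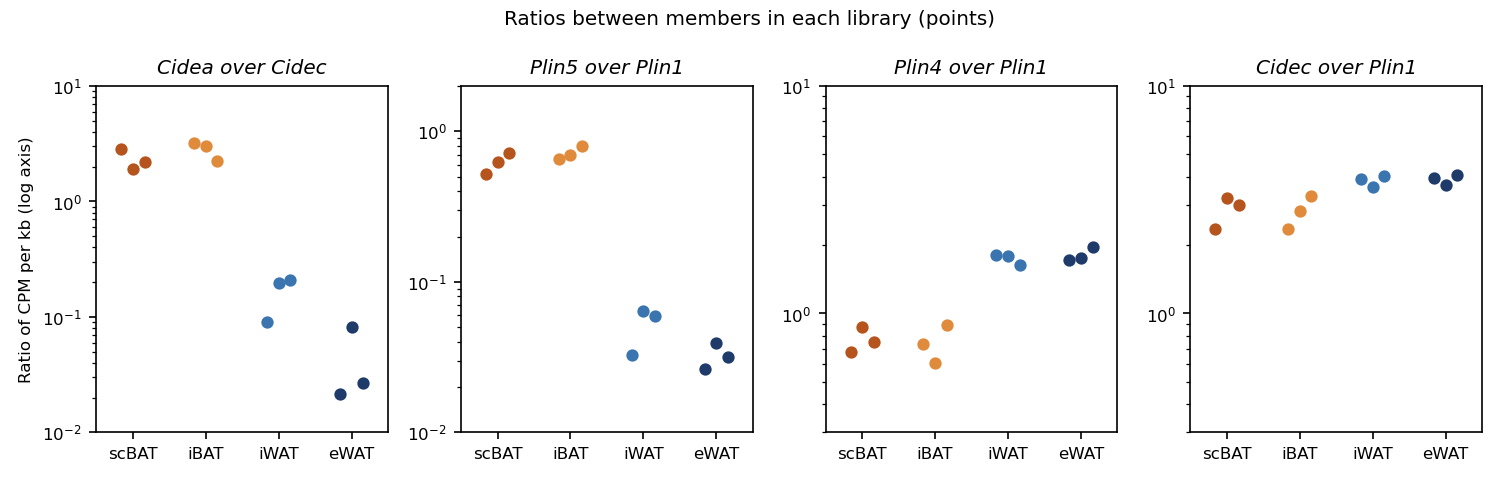
Ratios of CPM per kilobase between pairs of genes in each library (points, log y axis), by depot. For Cidea over Cidec, Plin5 over Plin1 and Plin4 over Plin1 the brown and white libraries lie far apart, and Cidec over Plin1 is 2.35 to 3.30 in brown fat and 3.60 to 4.07 in white fat.

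Genes that act on lipid droplets beside these 8 were taken from lists of known roles. Of 18 tested genes of droplet formation and size, 11 rose and 3 fell in brown minus white, with a median of 0.52. Of all tested genes, 31.3% rose and 38.1% fell. The smallest adjusted p belonged to Clstn3 with 3.49 (adjusted p = 2.87e-07), whose locus also encodes the adipose droplet protein Clstn3b, not separated by counts per symbol. Acsl3, an acyl-CoA synthetase of nascent droplets, was at 1.40, Spast, a microtubule-severing enzyme also found on droplets, at 0.56, and Fitm1, a triglyceride-binding protein of the endoplasmic reticulum, at 4.38. Tmem159, the partner of seipin at sites of droplet formation, fell by 1.03 on the log2 scale, Mogat1, a monoacylglycerol acyltransferase, by 1.63 and Rab8a, a small GTPase, by 0.36.

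Of 13 tested genes of lipolysis at the droplet, 7 rose and 6 did not pass, with a median of 0.38, while 69.4% of all tested genes passed. Prkaca, a catalytic subunit of protein kinase A, was at 1.42, Pnpla3, a droplet hydrolase, at 1.64, G0s2, the inhibitor of adipose triglyceride lipase, at 1.62, and Ubxn4, an endoplasmic reticulum protein, at 0.42. Pnpla2, which encodes that lipase, was at 0.89 (adjusted p = 0.00484), while its activator Abhd5 was at 0.11 (adjusted p = 0.722) and Lipe, the hormone-sensitive lipase, at 0.24 (adjusted p = 0.343). These 3 were named for their roles after their values were seen. Without iWAT 1 and 3 the calls in this list changed and came in both directions, in a fit that leaves iWAT 2 alone in its depot.

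Of 15 regulators of droplet coat genes, all tested, 9 rose and 4 fell, with a median of 0.72. Ppara, the nuclear receptor for fatty acid oxidation, was at 4.30, the coactivators Ppargc1b and Ppargc1a at 3.72 and 3.31, and the estrogen-related receptor Esrra at 2.16. Nrip1, a corepressor of oxidative genes, fell by 1.96 on the log2 scale, Cebpd, a C/EBP factor of early adipogenesis, by 1.45, Rxra, the partner of the Ppar receptors, by 0.77 and Hif1a, a hypoxia-inducible factor, by 0.31. Pparg, the adipogenic receptor, was at 0.76 (adjusted p = 0.00978). As markers of fat cells, Ucp1, the uncoupling protein, was at 6.03, Lep, which encodes leptin, at -1.79, and Adipoq, which encodes adiponectin, at -0.42 (adjusted p = 0.0775). The shares called in the lists stand beside the 69.4% of all genes given above, 31.3% higher and 38.1% lower.

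For each member, the genes with the most similar pattern over the 12 libraries were found among 12903 genes by the root mean square difference of log2 CPM, each gene centred on its own mean. For Plin5 they were Lrrc15 at 0.208, Tmem79 and Ppara at 0.275, and for Cidea they were Myo5c at 0.382, Pank1 and Adprhl1. For Plin4 they were Aldh1l1 at 0.110, Ghr and Phldb1, for Cidec Por at 0.0903, Ptplb and Lmna, and for Plin1 Nfix at 0.0938, Cd151 and Mgll. For Plin2 they were Plekhf1 at 0.142, Ppa1 and Nat8l, for Plin3 Agpat3 at 0.124, Naprt1 and Mrpl51, and for Cideb Slc25a34 at 0.576, Rarb and Cyp2u1. Between members the smallest values were 0.271 for Cidec and Plin1, 0.382 for Plin2 and Plin3, and 0.419 for Plin4 and Cidec. Next came 0.641 for Plin1 and Plin4, 0.658 for Plin1 and Plin2, and 0.672 for Cidea and Plin5. Each of these measures is in log2 units and rests on libraries that also differ in depot and cell content.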

How the data were processed

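As deposited, the table gives raw, unnormalized counts per gene symbol in each of the 12 libraries. The submitters' processing notes name edgeR, HTSeq 0.6.1p1, Picard 1.119, STAR 2.4.2a, bcl2fastq 1.8.3 and the mm10 build. The strand setting and gene annotation are not given in the sources used here.

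Genes kept by filterByExpr, 14898 of 23420 and all 8 members, were tested by edgeR 4.0.16 (quasi-likelihood F, robust, TMM factors, a mean per depot over all 12 libraries, 8 residual degrees of freedom) under R 4.3.3. Adjusted p-values without a named tool are from edgeR, adjusted within a contrast by Benjamini-Hochberg over every tested gene, and 0.05 was the limit for a call. The biological coefficient of variation came to 26.1%, and within depots to 15.1% in scBAT, 12.0% in iBAT, 41.9% in iWAT and 14.7% in eWAT. Standard errors are the log2 difference over the root of F, and intervals are 95% intervals. The fit was tested on simulated data. Alternatives used DESeq2 1.42.0, limma 3.58.1 (voom), other scalings, no filter, a replicate block, only the libraries of a pair, and each library left out.

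Gene lengths and positions are from the GENCODE annotation of GRCm38, the same build as mm10. Promoters are from RefSeq and were used for 7 of 8 members, without that of Cidea. Named genes are the members, in each list those called against the direction of most and up to 4 with the smallest adjusted p, overlapping and nearest tested genes, 3 genes of most similar pattern with a mean of at least 1 CPM (prior count of 2 in the log), and Ucp1, Adipoq, Lep and Pparg. Members, lists and tests were chosen with earlier results of these data known.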

Additional observations from a re-analysis of the deposited data

Results flagged for a closer look

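The 8 genes were looked at in the 6 brown and the 6 white libraries, 16 groups in all, for a library far from the others by Dixon's criterion at 95%, which chance meets in about 1 in 20 groups. In the brown libraries Plin3 was farthest out in iBAT 1, at 273 CPM, against 221 to 238 CPM in the other 5, with a gap of 0.665 of the whole range. In the white libraries Cideb was farthest out in eWAT 3, at 0.878 CPM (28 counts), against 0.0352 to 0.176 CPM in the other 5, with a gap of 0.833 of the range. Each group of 6 joins both depots of a tissue.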

How the results depend on the processing

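In brown minus white, 6 members passed (5 higher, 1 lower) under every alternative of scaling, filter, tool, replicate block and single library left out except without iWAT 3, where Cidec also passed. The sign of Plin1 in that contrast, -0.01, turned to 0.00550 with DESeq2 size factors, 0.00548 with the DESeq2 Wald test, 0.0571 with limma-voom and 0.0440 with the replicate block, and ran from -0.17 to 0.28 with a library left out. In iWAT minus eWAT, Plin5 turned to -0.0097 with upper quartile scaling, -0.29 with limma-voom and -0.10 with the replicate block, and Cidec in scBAT minus iWAT to -0.021 with upper quartile scaling. In scBAT minus iBAT, 49 genes passed in all, against 210 with DESeq2, 29 with limma-voom, 18 with the replicate block, 154 with only that pair and 287 without iWAT 1 and 3. Members called in iWAT minus eWAT numbered 2 with DESeq2, 0 with only that pair and 0 without iWAT 1 and 3, and all genes called numbered 210 with only that pair and 892 without iWAT 1 and 3, against 4277.

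Without iWAT 1 and 3, chosen with the data known, 11 genes of the lipolysis list passed in brown minus white. Signs then turned in iWAT minus eWAT for Plin1 (0.00410) and Plin2 (0.61), in scBAT minus iWAT for Cidec (-0.60, adjusted p = 0.0401) and Plin1 (-0.27), and in iBAT minus iWAT for Plin1 (-0.43, adjusted p = 0.0121). With single libraries left out, all genes called ran from 10 to 145 in scBAT minus iBAT and from 1221 to 10323 in iWAT minus eWAT, and members called in iWAT minus eWAT from 0 to 6. Differences whose sign turned in these runs spanned -0.22 to 0.10 for Plin5 in scBAT minus iBAT, -0.25 to 0.52 for Cidec in scBAT minus iWAT, -0.57 to 0.18 for Plin2, -0.87 to 0.33 for Plin5 and -2.63 to 0.57 for Cideb in iWAT minus eWAT, and -0.44 to 0.35 for Cidec and -0.047 to 0.83 for Plin1 in iBAT minus iWAT. The cause was not tested.

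No pairing of the libraries by the replicate numbers in the titles was seen. Whether equal numbers mark a shared animal cannot be told from this. Over 18 same-number pairs the deviations from the depot means correlated from -0.18 to 0.23, 5 of them over 0.1, and 5 of 12 libraries correlated best with their own number. With the replicate block, Plin4 in iBAT minus iWAT was at -0.89 (adjusted p = 0.0852), and no other call on a member changed. Counts below about 30 a library, as for Cideb, limit any statement on that gene, and the spread within iWAT limits those on iWAT.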

Other observations

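Genes next to the members on the chromosome had differences of their own in brown minus white. Lrg1, 2082 bases from Plin5, had -0.94 (adjusted p = 0.00286), and Ubxn6, the nearest tested gene on the other side of Plin4, had 0.83 (adjusted p = 3.43e-06), so the direction changed between neighbours along this stretch of chromosome 17. Ticam1, 690 bases from Plin3, had 0.89 (adjusted p = 2.95e-05), while Arrdc5 on its other side averaged 0.972 CPM in scBAT and 0.838 CPM in iBAT, against no counts in iWAT and 0.0578 CPM in eWAT. Pex11a, a peroxisomal gene 3054 bases from Plin1, had 0.77 (adjusted p = 0.00913), and Kif7 on the other side had -1.84 (adjusted p = 8.55e-06). Beside Cidec, Rpusd3 had 0.97 and Jagn1 0.63.

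Impa2, 21132 bases from Cidea, had 2.88 (adjusted p = 2.65e-08), with 45.7 ± 5.82 CPM in scBAT and 54.4 ± 6.04 CPM in iBAT, against 8.56 ± 1.49 CPM in iWAT and 5.32 ± 0.323 CPM in eWAT (SD, n = 3 each). The noncoding gene B430212C06Rik, which overlaps the start of Cidea on the opposite strand with no shared exonic base, had 2.38 (adjusted p = 2.77e-05). Tubb6 on the other side of Cidea had -0.41 (adjusted p = 0.0305). Beside Plin2, Dennd4c had 0.58 (adjusted p = 0.000408) and Haus6 -0.41 (adjusted p = 0.0939). Dhrs1 beside Cideb had 0.79 and Ltb4r1 -3.11. No relation between neighbours was tested.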
